A study of Rattus norvegicus with 18 samples.

Results

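Nqo1, Gclc, Gclm, Txnrd1, Srxn1, Hmox1, Slc7a11, Akr1b8 and Gsr are core target genes of the transcription factor NRF2. They were followed through oral carcinogenesis as 9 of the 14217 genes that the rat arrays name. Members were matched to probe sets by gene symbol, and they have 13 probe sets among the 31042 tested. The list of members was drawn up with earlier results of these data known. Each gene is given by its probe set of highest mean log2 signal, and the other probe sets of Gclc, Txnrd1 and Srxn1 are set beside it. RNA was measured in 18 samples, 3 in each of 6 groups, from tongue epithelia and from submucosal fibroblasts with normal tissue, dysplasia or squamous cell carcinoma (SCC). All animals were male Sprague Dawley rats whose age the labels do not give. Dysplasia and SCC came from rats that drank water with 0.002% of the carcinogen 4-nitroquinoline-1-oxide (4NQO) and were killed between week 14 and week 22 as lesions became visible, and normal tissue came from rats on water alone. Each sample pooled tissue of 3 rats, so p-values measure the spread between pools. Stage and exposure to 4NQO cannot be told apart from normal tissue, because both lesion stages and neither normal group had the carcinogen.

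NRF2, encoded by Nfe2l2, is held in the cytoplasm by KEAP1, which hands it to a CUL3 ubiquitin ligase for degradation. Electrophiles and oxidants modify KEAP1, NRF2 accumulates, pairs with small MAF proteins and binds antioxidant response elements, while BACH1 occupies many of the same elements as a repressor. The targets rebuild glutathione, reduce quinones and aldehydes, restore thioredoxin and peroxiredoxins, and break down heme. 4NQO is itself an electrophile, and NQO1 is an enzyme that reduces it, towards a hydroxylamine that forms DNA adducts.

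Promoter windows were available for 7 of the 9 genes, 8 windows in all, from the RefSeq annotation of the rat build GRCr8, and Hmox1 and Gsr are named only. The 3 windows shown are those with a match to the antioxidant response element core TGACNNNGC or the AP-1 motif TGANTCA on either strand, and the matches are in capitals. Each runs 5′ to 3′ on the strand of the gene, from 250 bases before the start of the transcript to 20 bases after it. Gclm lies at chr2:213031885-213032154 on the plus strand, Txnrd1 at chr7:22755885-22756154 on the minus strand and Srxn1 at chr3:161064562-161064831 on the plus strand.
Gclm: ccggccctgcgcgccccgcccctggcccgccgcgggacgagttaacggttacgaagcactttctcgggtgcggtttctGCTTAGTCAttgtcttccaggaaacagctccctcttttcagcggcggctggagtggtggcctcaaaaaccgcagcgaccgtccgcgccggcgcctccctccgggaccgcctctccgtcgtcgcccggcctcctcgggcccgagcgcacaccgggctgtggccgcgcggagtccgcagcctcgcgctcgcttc
Txnrd1: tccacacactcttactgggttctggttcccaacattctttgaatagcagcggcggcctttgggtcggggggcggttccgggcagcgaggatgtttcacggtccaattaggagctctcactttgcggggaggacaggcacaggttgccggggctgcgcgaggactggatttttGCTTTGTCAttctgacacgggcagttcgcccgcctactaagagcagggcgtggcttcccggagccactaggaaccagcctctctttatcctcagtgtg
Srxn1: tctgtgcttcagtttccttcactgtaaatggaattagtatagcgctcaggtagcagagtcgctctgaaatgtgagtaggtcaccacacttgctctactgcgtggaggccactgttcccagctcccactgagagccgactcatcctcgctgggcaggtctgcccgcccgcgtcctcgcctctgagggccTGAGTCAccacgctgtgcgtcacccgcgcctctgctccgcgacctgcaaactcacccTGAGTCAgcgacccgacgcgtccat
The Gclm window held the core in reverse orientation 172 bases before the start, and the first of the Txnrd1 windows held it in reverse 78 bases before the start. The Srxn1 window held the AP-1 motif 62 and 5 bases before the start. No match to either motif was found in the windows of Nqo1, Gclc, Slc7a11, Akr1b8 and in the other window of Txnrd1. Of 33469 rat windows, 12.1% held the response element core and 7.33% the AP-1 motif, and the cores can overlap AP-1 sites in sequence. These are letter matches in short windows and not measured binding.

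The fibroblast samples held much epithelial RNA. The mean log2 signal of 15 measured epithelial markers, keratins and junction genes among them, was 12.87 to 13.07 in the epithelia and still 10.43 to 12.70 in the fibroblasts, with the lowest value in normal fibroblasts 3. The 16 fibroblast markers stood at 11.22 to 12.64 in fibroblasts and at 6.60 to 9.12 in epithelia, apart from SCC epithelia 2 at 11.07. The third fibroblast sample of every stage had the lowest epithelial markers of its group, at 10.43, 11.94 and 11.80. The added polyA control RNAs read 7.56 to 8.19 in epithelia and 8.21 to 12.16 in fibroblasts, so that the preparation of the RNA and the layer cannot be told apart. In these bulk samples, fewer cells of a type and less RNA per cell cannot be told apart either.

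In the epithelia, the genes of glutathione synthesis and Akr1b8 were already higher in dysplasia and remained higher in SCC, while Hmox1 was lower and Nqo1 and Txnrd1 passed the test at neither stage. With array weights Nqo1 passed in dysplasia (0.34, adjusted p = 0.0401), and as the mean of its probe sets Txnrd1 passed in SCC (-0.45, adjusted p = 0.0426). Between normal and dysplasia 7 of the 9 genes passed, 6 higher (Gclm, Akr1b8, Slc7a11, Gclc, Gsr, Srxn1) and Hmox1 lower, where 14.5% of all probe sets passed, 7% higher and 7.54% lower. The same 7 genes passed in the same directions between normal and SCC, where 29.9% of all probe sets did, 12.6% higher and 17.3% lower. These comparisons share the normal samples. The log2 difference between the 3′ and 5′ probe sets of Gapdh, a sign of RNA quality, also separated the stages, at 0.017 to 0.077 in normal, 0.14 to 0.17 in dysplasia and 0.18 to 0.24 in SCC epithelia, and its part in the results was not tested. The median log2 fold change of the 9 genes was 1.16 in dysplasia and 0.95 in SCC, beside -0.06 and -0.09 over all probe sets. Dysplasia lay wholly above normal for 6 of the 9 genes and wholly below for 1, and for 19% and 21.5% of all probe sets. SCC lay wholly above normal for 6 and wholly below for 2, and for 18.4% and 29.1% of all probe sets. Between dysplasia and SCC 0 of the 9 genes passed by limma, where 0.0258% of all probe sets did (0.0129% each for higher and for lower) and 4402 had an unadjusted p under 0.05. By the methods' t-test 0 of the 9 passed there also, both at an unadjusted p under 0.05, where 9.73% of all probe sets passed, and after Benjamini-Hochberg adjustment.

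**Figure D1:**
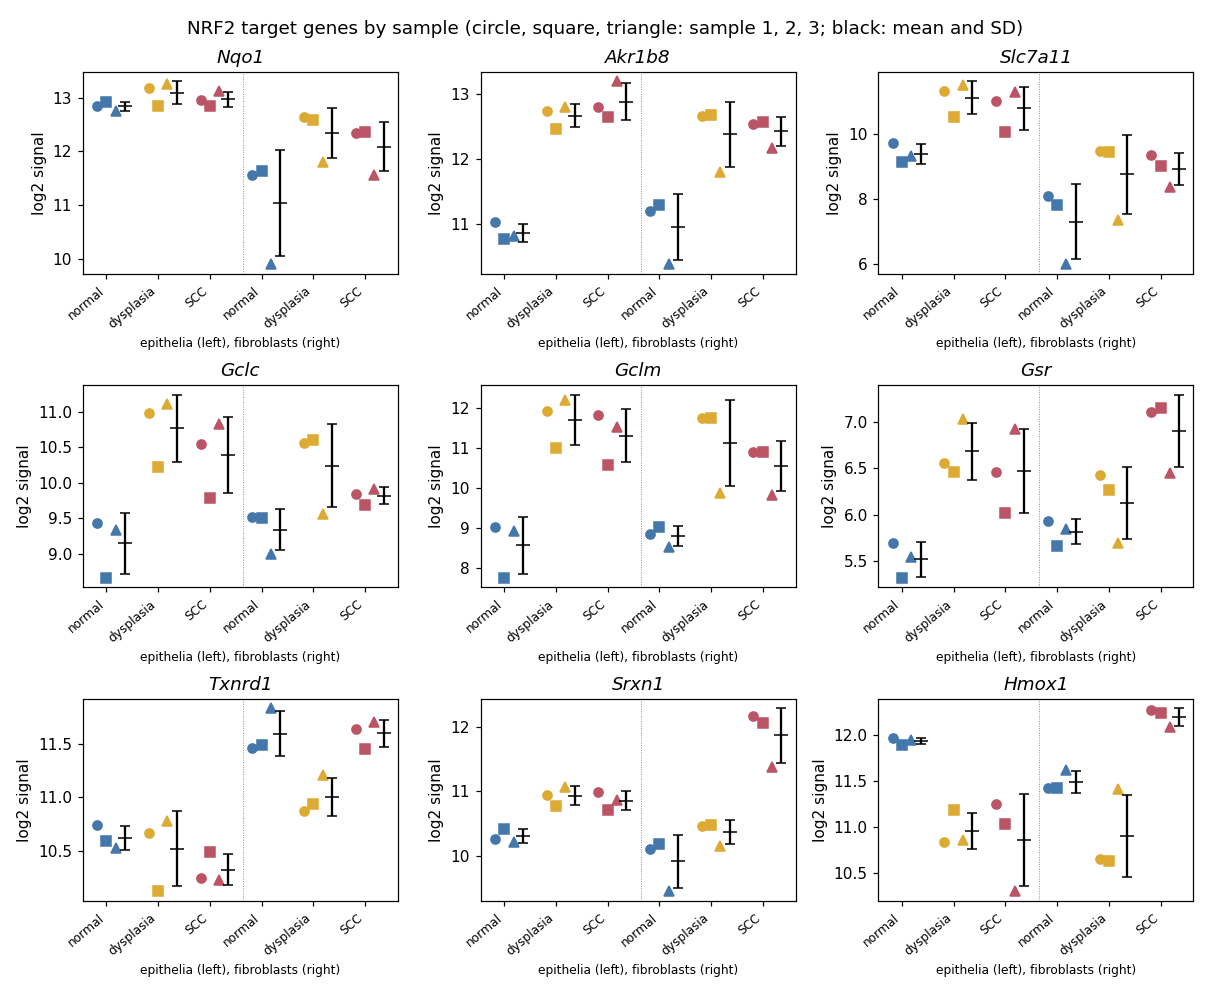
Log2 signal of each gene in every sample, with a panel per gene, the 3 stages of epithelia on the left and of fibroblasts on the right of each panel. Circles, squares and triangles are samples 1, 2 and 3, and the black mark and bar are the mean and SD of the group. In epithelia Gclm stands at 7.76 to 9.03 in normal tissue and at 10.56 to 12.19 in the lesions, while Nqo1 stays between 12.75 and 13.24.

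Among the quinone and aldehyde reductases, Nqo1 encodes NAD(P)H quinone dehydrogenase. Its log2 signal was 12.84, 12.91 and 12.75 in normal epithelia, 13.19, 12.85 and 13.24 in dysplasia and 12.96, 12.84 and 13.12 in SCC. The groups overlapped, and the log2 fold change was 0.26 (SE 0.14, adjusted p = 0.233) in dysplasia and 0.14 (SE 0.14, adjusted p = 0.473) in SCC. Akr1b8 encodes an aldo-keto reductase that clears reactive aldehydes. It read 11.02, 10.76 and 10.80 in normal epithelia, 12.74, 12.47 and 12.79 in dysplasia and 12.80, 12.65 and 13.20 in SCC. Every lesion sample lay above every normal one, a 3.50-fold rise in dysplasia (log2 1.81, SE 0.16, adjusted p = 0.00171) and a 4.05-fold rise in SCC (log2 2.02, SE 0.16, adjusted p = 0.000162). Both calls of Akr1b8 held with each array left out in turn.

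For glutathione synthesis, Gclm and Gclc encode the modifier and catalytic subunits of glutamate-cysteine ligase, the rate-limiting enzyme of glutathione synthesis, and Slc7a11 encodes the light chain of the cystine transporter that supplies its cysteine. Gclm read 9.03, 7.76 and 8.94 in normal epithelia, 11.93, 11.004 and 12.19 in dysplasia and 11.81, 10.56 and 11.53 in SCC. The second sample was the lowest of its group at every stage, and no lesion sample reached down to a normal one. The rise was 8.78-fold in dysplasia (log2 3.13, SE 0.45, adjusted p = 0.00467) and 6.63-fold in SCC (log2 2.73, SE 0.45, adjusted p = 0.00289), and both calls held with each array left out. Slc7a11 read 9.72, 9.13 and 9.33 in normal epithelia, 11.33, 10.55 and 11.51 in dysplasia and 11.04, 10.06 and 11.32 in SCC. It too separated lesions from normal tissue, with a 3.33-fold rise in dysplasia (log2 1.74, SE 0.35, adjusted p = 0.0156) and a 2.66-fold rise in SCC (log2 1.41, SE 0.35, adjusted p = 0.0175). Gclc ranged from 8.66 to 9.44 in normal epithelia, 10.22 to 11.10 in dysplasia and 9.79 to 10.83 in SCC, a 3.09-fold and a 2.38-fold rise (adjusted p = 0.0159 and 0.0224). The other Gclc probe set rose by 2.04 on the log2 scale in dysplasia (adjusted p = 0.0106) and by 1.64 in SCC (adjusted p = 0.0120). In dysplasia the calls of Gclc, Slc7a11 and Gsr were lost without normal epithelia 2 or without dysplasia epithelia 3, with adjusted p from 0.0531 to 0.0698. In SCC the call of Gclc was lost without normal epithelia 2 or SCC epithelia 1 or 3 (adjusted p from 0.0608 to 0.0770) and that of Slc7a11 without normal epithelia 2 or 3 or SCC epithelia 1 or 3 (adjusted p from 0.0502 to 0.0613).

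Among the thiol reductases, Gsr encodes glutathione reductase, which returns oxidized glutathione to its reduced form. Its probe set was dim, below the median of every array in normal epithelia, at 5.32 to 5.69, and stood at 6.46 to 7.03 in dysplasia and 6.02 to 6.92 in SCC. Gsr was 2.24-fold higher in dysplasia (log2 1.16, SE 0.24, adjusted p = 0.0159) and 1.93-fold higher in SCC (log2 0.95, SE 0.24, adjusted p = 0.0175), a call lost without normal epithelia 2 (adjusted p = 0.0613). Srxn1 encodes sulfiredoxin, which repairs overoxidized peroxiredoxins. It read 10.27, 10.43 and 10.23 in normal epithelia, 10.95, 10.77 and 11.07 in dysplasia and 10.99, 10.71 and 10.87 in SCC. Every lesion sample lay above every normal one, while dysplasia and SCC overlapped. The rise of 1.54-fold in dysplasia (log2 0.62, SE 0.12, adjusted p = 0.0141) and 1.46-fold in SCC (log2 0.55, SE 0.12, adjusted p = 0.0111) was the smallest among the 6 genes that rose. Its dysplasia call was lost without normal epithelia 1, normal epithelia 3 or dysplasia epithelia 3 (adjusted p = 0.0540, 0.0522 and 0.0655). Of its other probe sets, the brighter rose by 0.84 in dysplasia and 0.65 in SCC on the log2 scale, while the dimmest, at 4.64 to 5.35 in epithelia, went the other way, with -0.46 (adjusted p = 0.0541) and -0.45 (adjusted p = 0.0360). Txnrd1 encodes cytosolic thioredoxin reductase. It stayed between 10.12 and 10.78 across all epithelia, with a log2 fold change of -0.10 (adjusted p = 0.752) in dysplasia and -0.29 (adjusted p = 0.233) in SCC, and its other probe set was 0.61 lower in SCC (adjusted p = 0.0143).

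For heme breakdown, Hmox1 encodes heme oxygenase-1, which degrades heme and is a classic target of BACH1 repression as well as of NRF2. It read 11.96, 11.90 and 11.95 in normal epithelia, 10.83, 11.18 and 10.86 in dysplasia and 11.25, 11.03 and 10.30 in SCC. The normal samples lay close together and above every lesion sample. Hmox1 was 1.97-fold lower in dysplasia (log2 -0.98, SE 0.22, adjusted p = 0.0234) and 2.11-fold lower in SCC (log2 -1.08, SE 0.22, adjusted p = 0.00796), against the direction of the other 6 genes that passed. The dysplasia call was lost without any 1 of the 3 normal samples, without dysplasia epithelia 1 or without dysplasia epithelia 3 (adjusted p from 0.0628 to 0.0906), and the SCC call held with each array left out. The mean of the macrophage markers moved the other way, with 12 of 17 measured higher in SCC epithelia, at a mean log2 signal of 7.28 to 9.52 against 6.05 to 6.25 in normal epithelia, and 3 of 17 higher in dysplasia, at 6.59 to 7.33. Over all probe sets 12.6% were higher in SCC and 7% in dysplasia. Of the 17 markers 0 were called lower, but Cd68, Cd163, Adgre1 and Itgam had lower means in dysplasia than in normal epithelia (7.48 against 8.56 for Cd68). The part of macrophages in the result was not tested.

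**Figure D2:**
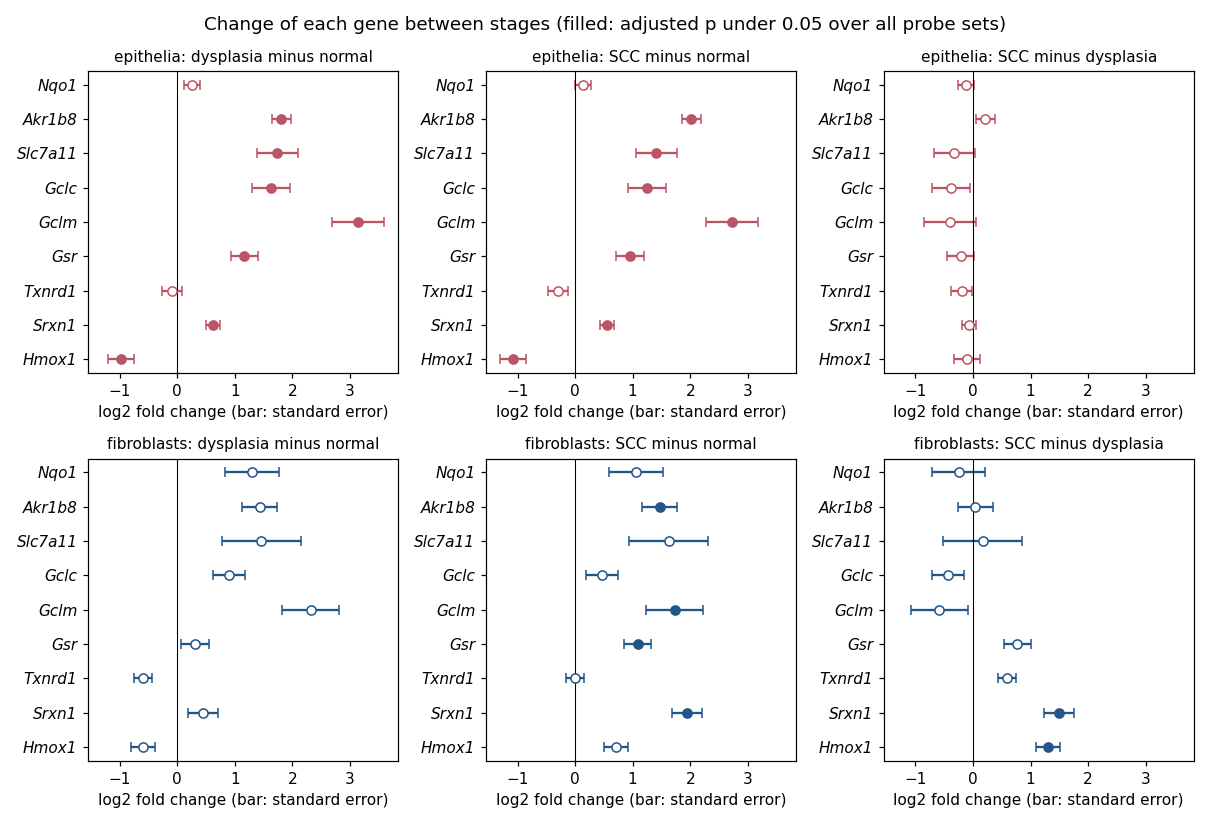
Log2 fold change of each gene in the 6 comparisons of stages, epithelia above and fibroblasts below, with bars for the standard error and filled points for an adjusted p under 0.05 over all probe sets. In epithelia 7 of 9 points are filled against normal tissue and 0 between the lesion stages, and in fibroblasts Srxn1 and Hmox1 are filled between dysplasia and SCC.

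In the fibroblasts, Srxn1 and Hmox1 were higher in SCC than in dysplasia, and Srxn1, Gclm, Akr1b8 and Gsr were higher in SCC than in normal samples. Between normal and dysplasia 0 of the 9 genes passed by limma, where 0.171% of all probe sets did (0.116% upwards and 0.0548% downwards) and 5600 had an unadjusted p under 0.05. The log2 difference between the 3′ and 5′ probe sets of actin, a sign of RNA quality, was 1.14 to 1.26 in SCC fibroblasts and 1.51 to 2.02 over the normal and dysplasia fibroblasts, and its part in the results was not tested. The median log2 fold change of the 9 genes was 0.90, beside -0.04 over all probe sets. With the replicate number as a block 5 of the 9 passed (Nqo1, Gclm, Slc7a11 and Akr1b8 higher, Txnrd1 lower), where 4.67% of all probe sets did. With the third fibroblast sample of every stage left out 8 passed, where 26.5% of all probe sets did. The samples left out had the lowest epithelial markers of their stages. Those kept read 12.32 to 12.70 for these markers, beside 12.87 to 13.07 in the epithelia. The part of epithelial RNA in these calls was not tested. Between dysplasia and SCC 2 of the 9 genes passed, both higher, where 1.85% of all probe sets passed, 1.52% higher and 0.322% lower. Between normal and SCC 4 of the 9 passed, all higher, where 15.2% of all probe sets passed, 7.82% higher and 7.43% lower. With the replicate block 7 passed there, with Nqo1 (adjusted p = 0.0164), Slc7a11 (adjusted p = 0.00986) and Hmox1 (adjusted p = 0.0406) added, and the share of all probe sets rose to 23.9%. The count of 4 fell to 2 without normal fibroblasts 1 or 2 and to 1 without SCC fibroblasts 1 or 2. In these fits 6%, 5.04%, 3.02% and 3.21% of all probe sets passed. Every SCC sample lay above every normal one for 7 of the 9 genes and 17.8% of all probe sets. SCC lay wholly above dysplasia for 4 genes and 13.5% of all probe sets. Dysplasia lay wholly above normal for 4 genes and 10.2% of all probe sets, and wholly below for 2 genes and 13.3%.

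Srxn1 carried the clearest fibroblast change. It read 10.12, 10.19 and 9.46 in normal fibroblasts, 10.47, 10.48 and 10.16 in dysplasia and 12.16, 12.05 and 11.38 in SCC. All SCC samples lay above all others, and sample 3 was the lowest of each stage. Srxn1 was 2.81-fold higher in SCC than in dysplasia (log2 1.49, SE 0.26, adjusted p = 0.0262) and 3.84-fold higher than in normal samples (log2 1.94, SE 0.26, adjusted p = 0.00377). The call against normal held with each array left out, and that against dysplasia was lost without any 1 of the dysplasia fibroblasts and without SCC fibroblasts 1 or 2 (adjusted p from 0.0700 to 0.129). The brighter of its other probe sets showed a log2 fold change of 2.02 against normal (adjusted p = 0.0413), though SCC and normal samples overlapped. The dimmest showed 0.03 (adjusted p = 0.919). Against dysplasia neither of them passed, with 2.11 (adjusted p = 0.102) for the brighter and 0.047 (adjusted p = 0.931) for the dimmest.

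Hmox1 read 11.42, 11.42 and 11.62 in normal fibroblasts, 10.65, 10.63 and 11.41 in dysplasia and 12.27, 12.24 and 12.09 in SCC. The stages did not overlap, with dysplasia lowest and SCC highest. It was 2.46-fold higher in SCC than in dysplasia (log2 1.30, SE 0.21, adjusted p = 0.0196), a call lost without dysplasia fibroblasts 1 or 2 or SCC fibroblasts 1 or 2 (adjusted p from 0.0788 to 0.103). Against normal the log2 fold change was 0.71 (SE 0.21, adjusted p = 0.0502), and 0.71 passed with the replicate block (adjusted p = 0.0406). Macrophage markers, whose cells are rich in heme oxygenase, stood at 8.73, 8.64 and 10.61 in dysplasia, 9.95, 9.99 and 11.61 in SCC and 11.31, 10.96 and 8.89 in normal fibroblasts. Of 17 macrophage markers 0 were called for SCC against dysplasia, dysplasia against normal or SCC against normal. Of all probe sets 1.85%, 0.171% and 15.2% passed in these. Neutrophil markers were called higher in SCC than in dysplasia fibroblasts for 3 of 9 genes, where 1.52% of all probe sets were higher. Against normal fibroblasts they were called higher in SCC for 8 of 9 genes, where 7.82% of all probe sets were higher. The part of either cell type in the result was not tested.

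Gclm, Akr1b8, Nqo1 and Slc7a11 shared a pattern among the fibroblast samples. Gclm read 8.87, 9.03 and 8.54 in normal, 11.75, 11.74 and 9.89 in dysplasia and 10.91, 10.89 and 9.82 in SCC fibroblasts. Akr1b8 read 11.19, 11.29 and 10.37 in normal, 12.67, 12.68 and 11.80 in dysplasia and 12.53, 12.57 and 12.17 in SCC. For both genes every lesion sample lay above every normal one, and sample 3 was the lowest of each stage. Against normal, SCC was 3.31-fold higher for Gclm (log2 1.73, SE 0.50, adjusted p = 0.0472) and 2.78-fold higher for Akr1b8 (log2 1.47, SE 0.30, adjusted p = 0.0177). The Gclm call was lost without any 1 of the normal fibroblasts, dysplasia fibroblasts 1 or 2 or SCC fibroblasts 1 or 2 (adjusted p from 0.0548 to 0.158), and the Akr1b8 call without SCC fibroblasts 1 or 2 (adjusted p = 0.0740 and 0.0753). In dysplasia the log2 fold changes of Gclm and Akr1b8 were 2.31 (SE 0.50) and 1.43 (SE 0.30), with an adjusted p of 0.109 for each, and with the replicate block both passed (adjusted p = 0.0177 and 0.0116). Nqo1 read 11.56, 11.64 and 9.90 in normal, 12.63, 12.57 and 11.80 in dysplasia and 12.34, 12.36 and 11.56 in SCC fibroblasts. Slc7a11 read 8.09, 7.83 and 5.98 in normal, 9.48, 9.45 and 7.35 in dysplasia and 9.38, 9.03 and 8.38 in SCC. Sample 3 again stood lowest, and neither gene passed against normal in SCC, with a log2 fold change of 1.05 (SE 0.47, adjusted p = 0.148) for Nqo1 and 1.63 (SE 0.68, adjusted p = 0.131) for Slc7a11.

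Gsr stood at 5.66 to 5.93 in normal fibroblasts and at 6.45 to 7.15 in SCC, a 2.12-fold rise (log2 1.09, SE 0.24, adjusted p = 0.0221) that was lost without normal fibroblasts 1 or 2 or SCC fibroblasts 1 or 2 (adjusted p from 0.0546 to 0.0920). Gclc differed by 0.90 in dysplasia (adjusted p = 0.174) and 0.47 in SCC (adjusted p = 0.260) on the log2 scale. Txnrd1 was read differently by its probe sets. The brighter stood at 11.46 to 11.84 in normal, 10.87 to 11.21 in dysplasia and 11.45 to 11.70 in SCC fibroblasts and passed no comparison of stages. The dimmer was 1.32 higher in SCC than in dysplasia (adjusted p = 0.0115) and 1.16 higher than in normal samples (adjusted p = 0.00802) on the log2 scale.

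**Figure D3:**
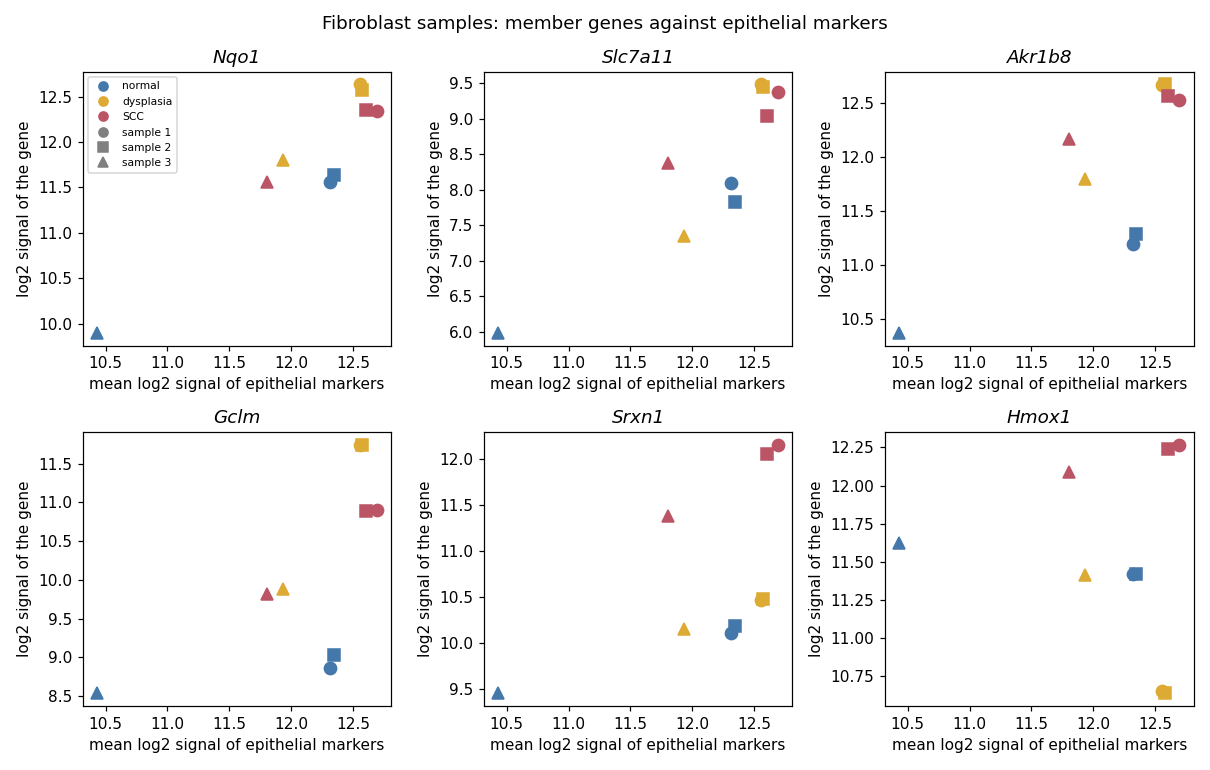
Log2 signal of 6 genes in the 9 fibroblast samples against the mean log2 signal of the epithelial markers of the same sample, coloured by stage, with circles, squares and triangles for samples 1, 2 and 3. Nqo1 and Slc7a11 climb with the epithelial markers, whereas Hmox1 shows no such line.

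The epithelial marker level moved with several genes across the fibroblast samples. Over these 9 samples, which differ in stage and share the epithelial RNA of each sample, Pearson's r with the marker level was 0.94 for Nqo1, 0.89 for Slc7a11, 0.78 for Akr1b8, 0.66 for Gclm, 0.65 for Gclc, 0.58 for Srxn1 and 0.48 for Gsr. It was -0.11 for Hmox1 and -0.55 for Txnrd1. With the marker level as a covariate, an alternative chosen after seeing the data, 4 of the 9 genes passed between normal and SCC fibroblasts, with Gclm lost (adjusted p = 0.0938) and Hmox1 gained (adjusted p = 0.0469). Between dysplasia and SCC 3 passed in that fit. Of all probe sets 13.1% passed there between normal and SCC and 4.37% between dysplasia and SCC. Of 9228 genes with a mean log2 signal above 7, those most like Nqo1 over the 18 samples were Lad1, Fabp5, Bcl11b, Calml3 and Dmkn, with r of 0.98, 0.98, 0.98, 0.97 and 0.97. Within the 9 epithelial samples the same genes had r of 0.52, 0.60, 0.44, -0.38 and -0.04, so the likeness rested on the difference between layers and among fibroblast samples.

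The change from dysplasia to SCC and from normal to SCC was compared between the layers in a fit of all 18 arrays. It treated the layers as independent, although samples of both may come from the same rats. For the change from normal to dysplasia 0 of the 9 genes differed by limma, where 4.13% of all probe sets did (1.93% higher and 2.2% lower) and 6574 had an unadjusted p under 0.05. For dysplasia to SCC, Srxn1 differed by -1.56 (epithelia minus fibroblasts, log2, SE 0.30, adjusted p = 0.0269), where 0.651% of all probe sets passed, 0.0387% higher and 0.612% lower. For normal to SCC, where 16.5% of all probe sets passed, 7.12% higher and 9.39% lower, Srxn1 differed by -1.39 (SE 0.30, adjusted p = 0.00602) and Hmox1 by -1.79 (SE 0.32, adjusted p = 0.00205). Hmox1 was thus lower than normal in SCC epithelia while its fibroblast value stood above normal. Both differences from normal to SCC held with each array left out, and the difference of Srxn1 from dysplasia to SCC was lost without dysplasia epithelia 1 or 3, SCC epithelia 2, dysplasia fibroblasts 2 or 3 or SCC fibroblasts 1 or 2 (adjusted p from 0.0512 to 0.0854). The other Txnrd1 probe set differed too, by -1.60 for dysplasia to SCC (adjusted p = 0.00798) and -1.77 for normal to SCC (adjusted p = 0.000329), where the brighter one had -0.79 (adjusted p = 0.165) and -0.30 (adjusted p = 0.420). The other Srxn1 probe sets did not pass. The brighter of them had -2.30 for dysplasia to SCC (adjusted p = 0.122) and -1.37 for normal to SCC (adjusted p = 0.142). The dimmest had -0.04 (adjusted p = 0.968) and -0.48 (adjusted p = 0.178).

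Levels also differed between the layers. Slc7a11 was higher in epithelia at every stage, by 2.09, 2.37 and 1.88 on the log2 scale in normal tissue, dysplasia and SCC (adjusted p = 0.00586, 0.00353 and 0.0199), the last call lost without SCC epithelia 1 or 3 or SCC fibroblasts 3 (adjusted p from 0.0621 to 0.0830). Nqo1 was 1.80 higher in normal epithelia (adjusted p = 0.000543), with 0.76 in dysplasia (adjusted p = 0.0984) and 0.89 in SCC (adjusted p = 0.0691). In SCC, Srxn1 was 1.00 lower (adjusted p = 0.00156) and Hmox1 1.34 lower in epithelia (adjusted p = 0.000295). In dysplasia Srxn1 was 0.56 higher (adjusted p = 0.0372), a call lost without dysplasia epithelia 1 or 3 or dysplasia fibroblasts 1 or 3 (adjusted p from 0.0514 to 0.133). The other Srxn1 probe sets did not pass in SCC, at -1.12 (adjusted p = 0.0551) and 0.275 (adjusted p = 0.212). In dysplasia they had 1.18 (adjusted p = 0.0339) and 0.31 (adjusted p = 0.134), and the dimmest was 0.76 higher in normal epithelia (adjusted p = 0.00108). The other Gclc probe set was higher in epithelia in dysplasia (1.25, adjusted p = 0.00542) and SCC (1.03, adjusted p = 0.0234), where the brighter did not pass. Txnrd1 was lower in epithelia at every stage by the brighter probe set, by -0.98, -0.49 and -1.28, but when arrays were aligned on hybridization controls the normal call was lost (-0.12, adjusted p = 0.692) and the dysplasia value flipped to 0.64, and the dimmer probe set was higher in normal and dysplastic epithelia, by 0.96 and 0.79. As the mean of both probe sets the normal difference was -0.0088 (adjusted p = 0.958). The dysplasia call of Txnrd1 was also lost without dysplasia epithelia 2 or dysplasia fibroblasts 3 (adjusted p = 0.144 and 0.103). In all 3 of the 9 genes passed in normal tissue, 3 in dysplasia and 4 in SCC, where 63.4%, 50.4% and 38.3% of all probe sets did. Those higher in epithelia were 35.7%, 27.4% and 18.1%, and those lower were 27.7%, 23% and 20.1%. That alignment shifted the median of all probe sets by 0.86, 1.12 and 0.31 towards epithelia.

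Among the regulators, Nfe2l2, which encodes NRF2 itself, passed no comparison of stages, with log2 fold changes of 0.14 in dysplasia and -0.29 in SCC epithelia and of -0.30 and -0.07 in fibroblasts against normal. Keap1 rose by 0.53 in dysplasia (adjusted p = 0.0475) and 0.62 in SCC epithelia (adjusted p = 0.0148), while Cul3, the scaffold of its ligase, fell by 0.36 and 0.39 (adjusted p = 0.0492 and 0.0214). Bach1 was 0.43 lower in SCC than in normal epithelia (adjusted p = 0.0368) and 0.88 higher in SCC than in dysplasia fibroblasts (adjusted p = 0.0495), the comparison in which Hmox1 rose. Of the 11 regulators measured, 1 was higher and 1 lower in dysplastic epithelia, 2 and 2 in SCC epithelia (Keap1 and Palb2 higher, Bach1 and Cul3 lower), and Rbx1 alone was higher in SCC fibroblasts against normal (0.47, adjusted p = 0.0365). Over all probe sets 7% were higher and 7.54% lower in dysplastic and 12.6% and 17.3% in SCC epithelia, so these counts lie near the background.

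Other NRF2 targets included large rises. In dysplastic epithelia 7% of all probe sets were higher and 7.54% lower, with a median log2 fold change of -0.06. Of 37 targets measured, 15 were higher and 1 lower there, with a median of 0.39. The largest were the glutathione S-transferases Gsta1 (3.93, adjusted p = 0.00317), Gsta3 (3.88, adjusted p = 0.00834) and Gstm1 (3.64, adjusted p = 0.00131) and the carbonyl reductase Cbr1 (2.14, adjusted p = 0.00467), and the lower gene was the heme transporter Slc48a1 (-0.62, adjusted p = 0.0164). Probes of near-identical transferases can share signal. In SCC epithelia 12 were higher, with Gsta1 at 3.35 and Gstm1 at 3.30, and 6 were lower, among them Fech at -0.85, Pir at -0.76 and Slc48a1 at -0.74. Over all probe sets 12.6% were higher and 17.3% lower there, so the share of lower targets was near the background. In SCC fibroblasts against normal 6 were higher and 3 lower (Trim16, Fech and Abcc1), where 7.82% of all probe sets were higher and 7.43% lower. The higher genes were led by Gsta3 (2.76, adjusted p = 0.0213) and Osgin1 (2.01, adjusted p = 0.0190). Against dysplasia only Nampt passed (1.03, adjusted p = 0.00696), where 1.52% of all probe sets were higher and 0.322% lower.

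**Figure D4:**
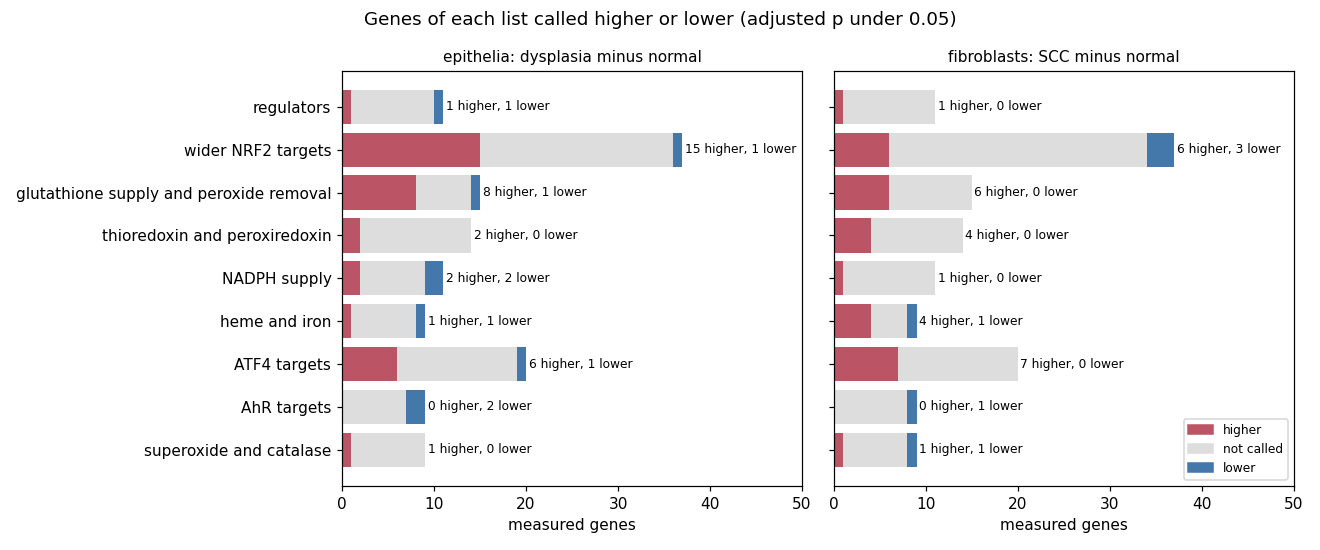
Number of measured genes called higher (red), lower (blue) or not called (grey) at an adjusted p under 0.05 in each list, for dysplasia against normal epithelia (left) and SCC against normal fibroblasts (right). Among the wider NRF2 targets 15 of 37 were higher in dysplastic epithelia and 6 of 37 in SCC fibroblasts. Of all probe sets 7% and 7.82% were.

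Neighbouring pathways were counted in dysplastic epithelia. Of 15 genes of glutathione supply, 3 of them members, 8 were higher and 1 lower, with glutathione synthetase Gss at 2.04 (adjusted p = 0.00620) and Cbs, the first enzyme of the transsulfuration route to cysteine, at 2.06 (adjusted p = 0.00835), and the glutathione-degrading Chac1 at -2.38 (adjusted p = 0.00205). Of all probe sets 7% were higher and 7.54% lower in that comparison, which is about 1 gene in each direction for a list of 15. Of 11 genes of NADPH supply 2 were higher (Tkt at 1.07 and Pgd at 0.53) and 2 lower (Rpia at -0.96 and Pgls at -0.86). Of 14 thioredoxin and peroxiredoxin genes 2 were higher, Prdx3 at 1.01 and Prdx6 at 0.97. Of 9 heme and iron genes Blvrb, biliverdin reductase B, was higher (0.95, adjusted p = 0.0348) and Hmox1 lower. Of 20 ATF4 targets, which overlap the amino acid supply of Slc7a11, 6 were higher and Chac1 was lower, with Asns at 1.04 and Mthfd2 at 0.98. Of 9 AhR targets, which count Nqo1 among them, 2 were called and both were lower, Cyp1b1 by -1.71 (adjusted p = 0.0153) and Cyp1a1 by -0.56 (adjusted p = 0.0286). Of 9 superoxide and catalase genes Cat, which encodes catalase, was the 1 called, and it was higher.

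In SCC fibroblasts against normal, 6 of the 15 glutathione supply genes were higher, with Gss at 2.07 and Ggct at 1.29, and 7 of the 20 ATF4 targets were higher, led by Asns at 2.60 (adjusted p = 0.00395). Of the 9 heme and iron genes 4 were higher, with Alas1, the first enzyme of heme synthesis, at 1.41 (adjusted p = 0.0130) and the transferrin receptor Tfrc at 1.38 (adjusted p = 0.0272), and Fech, which inserts iron into heme, was lower at -0.77 (adjusted p = 0.0143). Of 14 thioredoxin and peroxiredoxin genes 4 were higher, with Glrx at 1.36. Of 9 superoxide and catalase genes mitochondrial Sod2 was higher by 1.14 (adjusted p = 0.000849) and Cat was lower. Over all probe sets 7.82% were higher and 7.43% lower. Of the 9 AhR targets the 1 called was Ahrr, the AhR repressor, which was lower (-1.21, adjusted p = 0.0317).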

How the data were processed

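RNA of tongue epithelia and submucosal fibroblasts was hybridized to 18 Affymetrix rat arrays, 1 per sample. The authors deposited 1 normalized intensity per probe set and array, on a linear scale that goes down to 1. RMA and the Affymetrix Expression Console appear in the processing notes of the submitters, and their versions are not given there. These deposited intensities were taken to log2 with no offset and no filter. Of 31099 probe sets, 57 controls were left out. Of the 31042 tested, 20826 name 1 gene, 436 several and 9780 none. The number of arrays limits the precision.

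Each layer was fitted apart over its 9 arrays with limma 3.58.1 in R 4.3.3, and 1 fit of all 18 arrays gave differences between layers. Every adjusted p-value is from limma with Benjamini-Hochberg adjustment over all probe sets, called under 0.05. The scripts were tested on simulated data.

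The members and lists were chosen with earlier results of these data known. All 9 members were named in every comparison, with the regulators that passed and Nfe2l2, up to 4 called genes of each other list by size, and the 5 genes most correlated with Nqo1. List genes named beside small counts beyond that were chosen after their values were seen.

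Whether equal sample numbers pair samples of different stages within a layer was checked by correlating deviations from the group means. Over all probe sets it was 0.321 to 0.592 for dysplasia and SCC fibroblasts, above 0.1 for every pair. Samples of unequal number reached 0.352 there, above the lowest equal pair. For normal and dysplasia fibroblasts equal numbers had 0.0255 to 0.194, and over 14424 brighter probe sets 0.122 to 0.321. Unequal numbers reached 0.116 and 0.27 in these. In epithelia some pairs of equal number were below 0.1. The labels do not say what a number marks, and the block is given beside the fibroblast counts it changes. Alternatives were a filter on probe sets with a mean log2 signal under 7, a floor of 32, quantile normalization, alignment on hybridization controls, trend and robust settings, weights for arrays, the methods' t-test with and without Benjamini-Hochberg adjustment, the replicate block, only the compared groups, other sample sets, the mean of all probe sets per gene, a fold of 2 with an unadjusted p, and each array left out.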

Additional observations from a re-analysis of the deposited data

Results flagged for a closer look

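The change of Srxn1 and Hmox1 differed between the layers by the test of the difference itself. Srxn1 changed by -1.56 on the log2 scale in epithelia relative to fibroblasts from dysplasia to SCC (limma adjusted p = 0.0269) and by -1.39 from normal to SCC (adjusted p = 0.00602). Hmox1 changed by -1.79 from normal to SCC (adjusted p = 0.00205). Both differences from normal to SCC passed with each array left out in turn. These values are from the probe set of highest mean signal. The other Srxn1 probe sets passed in neither difference, with -2.30 and -0.04 from dysplasia to SCC (adjusted p = 0.122 and 0.968). From normal to SCC they had -1.37 and -0.48 (adjusted p = 0.142 and 0.178).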

How the results depend on the processing

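Among values of single genes with an array left out, 1342 kept their direction and side of the threshold, 60 lost the call, 11 gained it and 45 changed sign. The number of the 9 genes that passed depended on the setting. Under the methods' t-test it was 2 in dysplasia and 2 in SCC epithelia against normal, where 7.85% and 14.9% of all probe sets passed. In fibroblasts it was 0 for SCC against dysplasia and 1 for SCC against normal, where 0.515% and 2.85% did. Those counts are after Benjamini-Hochberg adjustment, which the study's methods do not name, and at an unadjusted p under 0.05 they were 7 and 7 in epithelia, where 30.5% and 36.1% of all probe sets passed, and 3, 3 and 5 in fibroblasts (dysplasia against normal, SCC against dysplasia, SCC against normal), where 14.2%, 16.7% and 28% did. With the replicate block it was 5 for dysplasia and 7 for SCC against normal fibroblasts, where 4.67% and 23.9% of all probe sets passed. The block left the count of SCC against dysplasia fibroblasts at 2, where 2.73% did. In epithelia it left 7 (dysplasia against normal), 0 (SCC against dysplasia) and 7 (SCC against normal), where 11%, 0.00966% and 26.3% did. The third fibroblast samples had the lowest epithelial markers of their stages. In the fits without them 26.5%, 16.2% and 42.3% of all probe sets passed for dysplasia against normal, SCC against dysplasia and SCC against normal. The number of the 9 genes that passed there was 8, 6 and 7. With array weights it was 8, 6 and 8 in the same order, where 31%, 30.4% and 57.9% of all probe sets passed, and 1 and 4 for the differences between layers in the changes to dysplasia and from dysplasia to SCC, where 26% and 11.6% did. Aligned on hybridization controls it was 1, 4 and 8 in fibroblasts, where 0.296%, 29.5% and 23.8% of all probe sets passed, and 4 for that second difference, where 39.6% did. For levels in normal tissue, dysplasia and SCC it was 5, 9 and 7, where 79.1%, 85% and 36.2% did. All 18 arrays in 1 fit gave 2 and the fold of 2 gave 3 for dysplasia against normal fibroblasts, where 3.68% and 2.39% of all probe sets passed. The floor gave 1 for SCC against dysplasia fibroblasts, where 1.91% did. For the difference from dysplasia to SCC, quantile normalization gave 0 and the fold of 2 gave 2, where 0.499% and 3.68% did. For levels in dysplasia the fold of 2 gave 1. The causes were not tested.

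With each array left out the counts ran from 2 to 7 (dysplasia) and 4 to 7 (SCC) against normal epithelia, lowest without dysplasia epithelia 3 (2) and normal epithelia 2 (3 and 4). They ran from 0 to 4 for dysplasia against normal fibroblasts (4 without dysplasia fibroblasts 3), 0 to 2 for SCC against dysplasia fibroblasts (0 without samples 1 or 2 of either, 1 without dysplasia fibroblasts 3) and 1 to 5 for SCC against normal fibroblasts. They ran from 0 to 2 for the difference from dysplasia to SCC and stayed at 2 for that from normal to SCC, and for levels ran from 3 to 4, 1 to 4 (1 without dysplasia fibroblasts 3) and 3 to 5. The share of all probe sets that passed moved too. Against normal epithelia it was 4.56% for dysplasia without dysplasia epithelia 3. Without normal epithelia 2 it was 7.46% for dysplasia and 21.2% for SCC. For dysplasia against normal fibroblasts it was 3.22% without dysplasia fibroblasts 3. For SCC against dysplasia fibroblasts it was 0.406% to 0.602% without samples 1 or 2 of either. For SCC against normal fibroblasts it was 3.02% and 3.21% without SCC fibroblasts 1 or 2, and 19.5% without dysplasia fibroblasts 3. For the difference from dysplasia to SCC it was 0.483% without SCC epithelia 1, where 2 genes passed.

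The alignment on hybridization controls moved the share of higher among called probe sets from 48.1% to 69.6% in dysplasia epithelia, from 42.1% to 51.6% in SCC epithelia, from 82.5% to 99.9% for SCC against dysplasia fibroblasts and from 51.3% to 97.9% for SCC against normal fibroblasts, with median shifts of 0.15, 0.06, 0.72 and 0.61. For the differences between layers the shares went from 46.8% to 73.3%, 5.94% to 0.114% and 43.1% to 7.61%, and for levels from 56.3% to 85.2%, 54.3% to 92% and 47.4% to 71.4% (59% in SCC with quantile normalization). In epithelia 6 genes higher and 1 lower were called against normal under both scalings.

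Log2 values that changed sign had not passed, apart from Txnrd1 in the level of dysplasia, at 0.64 with hybridization controls and 0.15 as the mean of probe sets. With hybridization controls Txnrd1 was 0.058 in dysplasia epithelia, Nqo1, Gclc and Gclm were 0.47, 0.29 and 0.13 for SCC against dysplasia fibroblasts, Nqo1, Gclc, Gclm and Akr1b8 were -0.68, -0.76, -0.63 and -0.64 for the difference from dysplasia to SCC, Akr1b8 was -0.0011 for that from normal to SCC, and Gclc, Gclm, Akr1b8 and Gsr were 0.66, 0.62, 0.77 and 0.56 for the normal level. With the marker covariate Gclc, Gclm, Slc7a11 and Gsr were 0.16, 0.22, 0.23 and 0.23 for SCC against dysplasia epithelia. Quantile normalization gave Akr1b8 -0.028 for SCC against dysplasia fibroblasts and 0.078 for the normal level, and Gsr 0.023 for the difference from normal to SCC. For SCC against dysplasia fibroblasts Slc7a11 and Akr1b8 were -0.0061 and -0.084 with array weights and -0.26 and -0.12 without the third samples. Txnrd1 was 0.090 in dysplasia epithelia without the second epithelial samples, and Gclc was -0.088 as the mean of probe sets for the difference from dysplasia to SCC.

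With an array left out, the values that crossed 0 ran for dysplasia against normal epithelia Txnrd1 from -0.22 to 0.10. They ran for SCC against dysplasia epithelia Srxn1 from -0.15 to 0.0037, Hmox1 from -0.29 to 0.18, Slc7a11 from -0.62 to 0.048 and Gsr from -0.44 to 0.011. They ran for SCC against dysplasia fibroblasts Nqo1 from -0.52 to 0.012, Slc7a11 from -0.54 to 0.53 and Akr1b8 from -0.25 to 0.19. They ran for SCC against normal fibroblasts Txnrd1 from -0.067 to 0.12. They ran for the difference from normal to dysplasia Slc7a11 from -0.43 to 0.94. They ran for the difference from dysplasia to SCC Nqo1 from -0.13 to 0.40, Gclc from -0.22 to 0.39, Gclm from -0.18 to 0.80 and Slc7a11 from -0.85 to 0.21. They ran for the difference from normal to SCC Slc7a11 from -0.61 to 0.44 and Gsr from -0.36 to 0.090. They ran for the normal level Gclc from -0.37 to 0.046, Gclm from -0.46 to 0.17 and Akr1b8 from -0.38 to 0.080. They ran for the dysplasia level Gclm from -0.035 to 0.94, Hmox1 from -0.075 to 0.32 and Akr1b8 from -0.0023 to 0.43.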
